A study of Danio rerio with 2 samples.

Results

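Collagen genes were described in dissected zebrafish pituitaries, across cell types and between 2 genotypes. Members were all features whose symbol has the form of a collagen chain (col, a type number, a, a chain number, upper or lower case) with at least 10 unique molecular identifiers (UMIs, each standing for 1 captured mRNA molecule) over both libraries, leaving out both type X genes. This gave 34 of 32057 features. Of 38 symbols of this form, 2 were the type X genes and 2 fell under the minimum. The lowest member was col17a1a with 18 UMIs, and the genes left out were col5a3b with 4 and col8a1a with 3. Droplet single-cell RNA sequencing had been done on dissected pituitaries of 6-month-old male AB-strain fish, dissociated with trypsin, EDTA and DNase II. One library came from wild-type (WT) fish and the other from cck1-/-;cck2-/- fish, which carry CRISPR/Cas9 mutations in both genes for cholecystokinin, a gut and brain peptide hormone. The latter is called the mutant here and is titled CCK1/2-KO in the labels. Pituitaries of 30 fish were pooled per group. With 1 library per genotype no difference between genotypes has a replicate check, no p-value is given, and each interval is a 95% interval that covers counting error only.

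Collagens are extracellular matrix proteins of 3 chains wound into a triple helix. Fibrillar types build the cables of bone, tendon, skin and cartilage. Fibril-associated types (FACITs) sit on the fibril surface. Type IV forms the sheet-like network of basement membranes under endothelium and epithelium, type VI forms beaded filaments close to cells, and the multiplexins XV and XVIII link basement membranes to the tissue around them. In a pituitary the best known producers are connective tissue cells and the cells of the capillaries, while endocrine cells lie on thin basement membranes.

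The WT library held 22358017 UMIs over 5236 barcodes and the mutant library 15910570 over 3755, with 11 barcode sequences present in both. After quality filters and doublet removal, 4864 WT and 3458 mutant cells remained, with medians of 882 and 982.5 UMIs. Over all barcodes the members held 23219 UMIs in WT (0.104% of the library) and 49403 in the mutant (0.311%). The gene ccka had 144 WT and 14 mutant UMIs, and fshb, the beta subunit of follicle-stimulating hormone, had 8853 and 34. Reads anchored at the poly(A) tail need not cover an edited site, so these counts do not test the genotype itself. Clusters with a median under 1000 UMIs, which held 50.8% of WT and 55.0% of mutant cells, were set apart as shallow and given no type.

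Cells were clustered without any collagen gene, so that collagens could be compared between clusters, and classes were named from lists of marker genes. The mesenchymal-like class (132 WT and 197 mutant cells) had 13 of 20 listed markers detected and raised at least 2-fold over the other cells. Among these were mmp2 at 992 CPM (UMIs of a gene per 1000000 UMIs of the class), dcn at 414 and pdgfra at 186. The mesenchymal list summed to 3437 (WT) and 3235 CPM (mutant) in this class. A list of 14 epithelial or keratinocyte markers summed higher, to 13312 and 9032 CPM, so that the class may not be mesenchyme alone. Endothelial-like cells (216 and 151) had 13 of 17 raised, kdrl and cdh5 at 802 and 752 CPM among them. All 12 listed markers of mural cells, the contractile cells around vessels, were also present in that class, with a summed level of 6954 (WT) and 6189 CPM (mutant) against 4413 and 4662 for the endothelial list, so that the class cannot be read as endothelium alone. Oligodendrocyte-like cells (72 and 73) had the myelin genes mpz and mbpb, and cd59, among their leading genes, with 9 of 13 markers raised. Of the markers not so raised, olig1 had no UMI in the class. The genes olig2, gpr37b and erbb3b were seen in only 2.76%, 6.21% and 3.45% of its cells, so the class may not be oligodendrocytes alone. Glial-like cells (144 and 95) had 9 of 18 raised, among them cyp19a1b, the aromatase of radial glia, at 3149 CPM, but gfap, the usual glial filament gene, was at only 7.67 CPM, s100b at 15.3 against 17.8 in the other cells, and fabp7b had no UMI. In this class the glial list summed to 8099 (WT) and 5840.3 CPM (mutant). The mesenchymal list, led by pdgfrb, reached 2251 and 2110 CPM and the mural list 2218 and 2823, so the class may not be glia alone. Hormone cells fell into 4 clusters, called here by gh1 (176 and 160 cells), prl (181 and 90), pomca (143 and 67) and lhb (108 and 20). The pomca cluster was placed with the hormone cells by its pomca level alone, being the deep cluster with the highest mean. Its raised markers were 7 neuron genes, and its 10 leading genes held gad2, a neuron marker, and no listed hormone gene, so that the naming rule for the other classes would not have called it a hormone cluster. Red blood cell-like cells (715 and 167), which should lack collagen mRNA, served as the measure of free RNA in the droplets.

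Among the named classes, collagen mRNA was concentrated in the mesenchymal-like class. There the 34 members summed to 20934 CPM over both libraries (20760 to 21109), against 2619 in oligodendrocyte-like, 1322 in endothelial-like, 1027 in glial-like and 228 in hormone cells, and 32.9 CPM (28.6 to 37.6) in red blood cell-like cells. The mesenchymal-like sum was 12840.4 CPM in WT and 27477 in the mutant, where 2 cells held 52.9% of the collagen UMIs of the class. The class was 2.71% of WT and 5.70% of mutant cells but held 67.2% and 82.9% of the members' UMIs. Of the 34 members, 21 had their highest CPM in mesenchymal-like, 6 in oligodendrocyte-like, 4 in glial-like, 2 in endothelial-like and 1 in hormone cells. Both libraries gave the same highest class for 25 of the 27 members that had at least 10 UMIs in it in each library. The exceptions were COL4A1 and col27a1b. These rankings cover the 5 classes only. In clusters outside them, 10 members stood above their highest class. A cluster of 57 cells with myod1, a muscle regulator, among its leading genes was higher for COL5A1 (2482 CPM), COL6A2 (1175) and col5a2a (725). Its collagen sum was 10186 CPM over both libraries. A cluster of 36 cells with foxd3, a neural crest factor, was higher for COL4A2 (814), COL4A1 (601), col15a1b (522), col5a3a (486) and col27a1b (133, from 15 UMIs). There the sum was 4608 CPM, so both clusters summed above the 2619 CPM of oligodendrocyte-like cells. The lyz cluster described below was higher for col4a5 and col28a1a. For col28a1a, col28a2a, col19a1, col9a1b and col17a1a the highest class held fewer than 10 UMIs over both libraries, which is too few to place them.

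**Figure D1:**
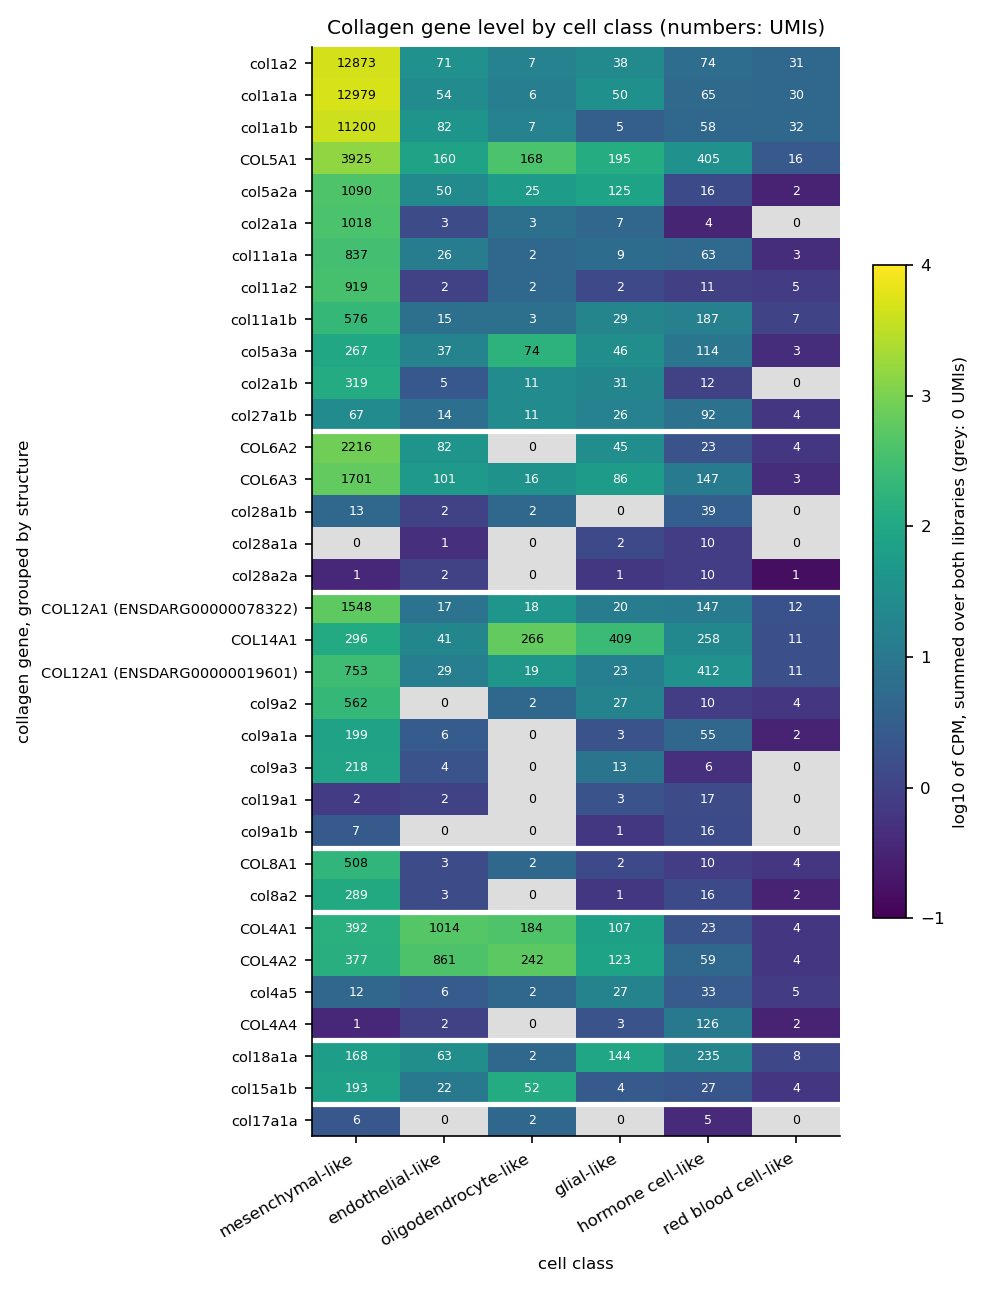
Level of each of the 34 collagen genes (vertical axis, grouped by structure with white lines between groups) in 5 cell classes and red blood cell-like cells (horizontal axis), as log10 of CPM summed over both libraries, with the UMI count printed in each cell and grey for 0 UMIs. Most genes are brightest in the mesenchymal-like column, whereas COL4A1 and COL4A2 are bright in the endothelial-like and oligodendrocyte-like columns and COL14A1 in the oligodendrocyte-like and glial-like columns.

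The fibrillar chains carried most of the signal, with 54093 of the members' UMIs over all barcodes. Of 12 members, 10 were highest in mesenchymal-like cells and 2, col5a3a and col27a1b, in oligodendrocyte-like cells. For col27a1b this rested on 11 UMIs (25.5 CPM, 12.7 to 45.7), with 25.3 CPM in mesenchymal-like cells. Within the hormone cells, the lhb cluster taken alone stood higher, at 49.6 CPM (38.8 to 62.6) from 71 UMIs, though the intervals overlap. Type I is the main collagen of bone, tendon and skin, and zebrafish carry the genes col1a1a and col1a1b for its alpha1 chain beside col1a2. In mesenchymal-like cells col1a1a stood at 4893 CPM (4809 to 4978), 153-fold above the next of the 5 classes. The values were 4853 CPM and 144-fold for col1a2, and 4222 CPM and 108-fold for col1a1b. These pooled values lean on 2 mutant cells, which held 6889 of the 10636 mutant UMIs of col1a1a in the class. The same cells held 7570 of 10807 for col1a2 and 6161 of 8961 for col1a1b. In WT mesenchymal-like cells alone the levels were 1976 (col1a1a), 1742 (col1a2) and 1888 CPM (col1a1b). In the myod1 cluster, outside these classes, the levels were 1096, 1343 and 1434 CPM in the same order. A UMI of col1a1a was seen in 75.7% of mesenchymal-like cells and in 3.29% of red blood cell-like cells, at median depths of 6147 and 7265 UMIs. In hormone cells the type I genes stood at 5.32 CPM (col1a1a) and 6.05 CPM (col1a2), close to the 4.61 and 4.76 CPM of red blood cell-like cells, and so at the level of free RNA.

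Type V chains, which join type I fibrils and limit their width, were spread more widely. COL5A1 had 1479.6 CPM in mesenchymal-like cells (1434 to 1527), 390.0 in oligodendrocyte-like cells (333 to 454), 125 in glial-like cells, 76.1 in endothelial-like cells and 33.1 in hormone cells (30.0 to 36.5), and 2.46 in red blood cell-like cells (1.41 to 3.99). All 5 classes therefore lay above the free RNA level for this gene. Without the pomca cluster, whose leading genes do not mark it as hormone cells, the hormone level was 24.3 CPM (21.3 to 27.5). A COL5A1 UMI was then seen in 138 of 735 cells. In hormone cells a COL5A1 UMI was seen in 21.5% of cells (3.02% when each cell was thinned to 1000 UMIs), against 1.70% (0.165%) of red blood cell-like cells, at median depths of 11682 and 7265 UMIs. Its usual partner col5a2a reached 411 CPM in mesenchymal-like cells. The third type V chain, col5a3a, was highest of the 5 classes in oligodendrocyte-like cells at 172 CPM (135 to 216), against 101 in mesenchymal-like and 486 in foxd3 cluster cells.

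Type II and type XI chains, the fibrillar collagens of cartilage, were highest in mesenchymal-like cells among the 5 classes. Within that class, col2a1a, col11a2 and col11a1a came from few cells. The gene col2a1a had 384 CPM there, 55.1-fold above the next of the 5 classes, yet only 21 of 329 cells held a UMI of it. Of its UMIs in the class, 1 cell held 88.8% in WT and 1 cell 58.7% in the mutant. In the same class col11a2 (346 CPM) was seen in 33 cells and col11a1a (316 CPM) in 39. Here 1 cell held 85.3% and 86.3% of the WT UMIs, and 38.2% and 34.6% of the mutant ones, for each gene in turn. The WT counts of col2a1b and col11a1b leaned less on 1 cell, which held 30.7% and 18.5% of them. In the mutant these shares were 14.4% and 37.2%. The FACIT chains that decorate cartilage fibrils followed, with col9a2 at 212 CPM, col9a3 at 82.2 and col9a1a at 75.02 in mesenchymal-like cells. For these genes in turn, 1 cell held 79.2%, 90.1% and 82.6% of the WT UMIs and 55.1%, 52.6% and 54.0% of the mutant ones.

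Other FACITs divided between classes. Both genes listed under the symbol COL12A1, a FACIT of dense connective tissue, were highest in mesenchymal-like cells, ENSDARG00000078322 at 584 CPM (555 to 613) and ENSDARG00000019601 at 284 (264 to 305). COL14A1, a FACIT that binds type I fibrils, differed from both. It stood at 618 CPM in oligodendrocyte-like cells (546 to 696), 261 in glial-like cells (237 to 288), 112 in mesenchymal-like cells and 21.1 in hormone cells, and a UMI was seen in 59.3% of oligodendrocyte-like cells against 1.13% of red blood cell-like cells. WT oligodendrocyte-like cells held 140 UMIs of it (694 CPM) and mutant ones 126 (550.2 CPM). Among hormone cells, ENSDARG00000019601 was counted most in the prl cluster (335 of 412 UMIs), but 1 mutant cell held 92 of them.

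Among the 5 classes the type VI and type VIII chains were highest in mesenchymal-like cells. Type VI chains build beaded filaments, and COL6A2 had 835 CPM and COL6A3 641 CPM in mesenchymal-like cells, 21.4-fold and 11.7-fold above the next of the 5 classes, while the myod1 cluster had 1175 and 554 CPM. The short network chains of type VIII, known from vessel walls and the cornea, had 191.5 CPM (COL8A1) and 109 CPM (col8a2) there, and neither passed 5 CPM in any other of the 5 classes. The 3 type XXVIII genes were sparse, and col28a1a had no UMI in mesenchymal-like cells.

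None of the 4 basement membrane chains was highest in mesenchymal-like cells. COL4A1 and COL4A2, the chains that together form the type IV network of nearly all basement membranes, had 482 CPM (453 to 513) and 409 CPM (382 to 438) in endothelial-like cells. In oligodendrocyte-like cells they had 427 (368 to 494) and 562 (493 to 637), and in mesenchymal-like cells 148 and 142, while the foxd3 cluster had 601 (467 to 763) and 814 (656 to 998). The endothelial-like and oligodendrocyte-like intervals overlap for COL4A1, and the order of these classes for that gene was reversed between the libraries. For COL4A2 the oligodendrocyte-like level was higher in both libraries, at 501 against 356 CPM in WT and 616 against 457 in the mutant. A UMI of COL4A1 was seen in 56.4% of endothelial-like cells (31.4% after thinning). Type IV chains made up 67.7% of the collagen UMIs of endothelial-like cells and 1.41% of those of mesenchymal-like cells. The other type IV genes encode chains of specialised basement membranes such as that of the kidney filter. COL4A4 was the only member highest in hormone cells among the 5 classes, with 126 of its 150 UMIs in kept cells there and 114 (76.0%) in the pomca cluster alone, where 51 of 210 cells held a UMI. That placement rests on the pomca cluster, whose leading genes do not mark it as hormone cells. Without that cluster the hormone cells held 12 UMIs of COL4A4 (1.20 CPM, 0.62 to 2.09), below the 1.92 CPM of glial-like cells, which is from 3 UMIs. Its mesenchymal-like count was 1. The gene col4a5 was highest in glial-like cells among the 5 classes (27 UMIs, 17.3 CPM), but a cluster outside them, with the neutrophil genes lyz and mpx among its leading genes, held 73 of its 182 UMIs (40.1%), 55 in WT and 18 in the mutant.

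The multiplexins were also led by other classes. The gene col18a1a, whose protein is the source of the fragment endostatin, was highest in glial-like cells at 92.0 CPM (77.6 to 108), with 63.3 in mesenchymal-like and 19.2 in hormone cells. The gene col15a1b was highest of the 5 classes in oligodendrocyte-like cells at 121 CPM (90.2 to 158), with 72.8 in mesenchymal-like cells, but stood at 522 CPM (397 to 673) in the foxd3 cluster. The one membrane-spanning member, col17a1a of hemidesmosomes, had 18 UMIs in all and could not be placed.

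**Figure D2:**
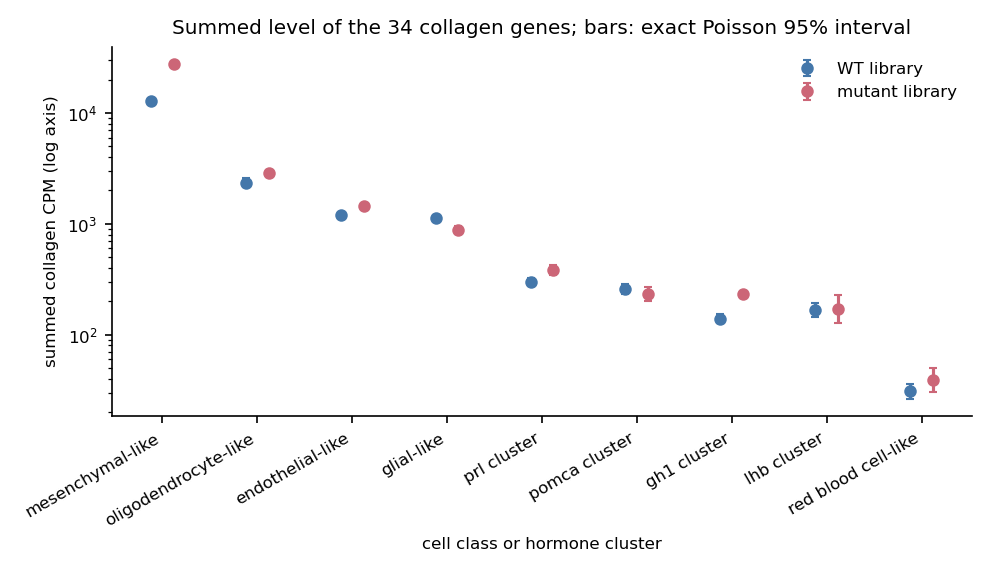
Summed level of the 34 collagen genes in CPM (vertical axis, log scale) in each cell class and hormone cluster (horizontal axis), with 1 point per library (blue WT, red mutant) and bars for the exact Poisson interval. Mesenchymal-like cells lie highest in both libraries, at 12840.4 and 27477 CPM, every hormone cluster lies between 139.8 and 383 CPM, and red blood cell-like cells lie lowest at 30.7 and 39.3 CPM.

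The share that 1 chain takes of a pair of partner chains tells whether a gene's UMIs in a class come with those of its partner in the same proportion as elsewhere. For COL4A1 and COL4A2, COL4A1 took 51.0% of the pair in mesenchymal-like cells, 54.1% in endothelial-like cells (51.8 to 56.4), 43.2% in oligodendrocyte-like cells (38.4 to 48.0) and 28.05% in hormone cells (18.7 to 39.1, 23 against 59 UMIs). Of 247 endothelial-like cells with either chain, 159 held both, against 2 of 60 hormone cells. Low counts alone make it rare to see both chains in 1 cell. With 23 and 59 UMIs in hormone cells, this contrast cannot tell whether the chains occur together there. COL6A2 took 56.6% of its pair with COL6A3 in mesenchymal-like cells (55.0 to 58.1), but 13.5% in hormone cells (8.77 to 19.6) and 89.6% in the lyz cluster (82.2 to 94.7). The hormone share leans on single cells. In the gh1 cluster 1 cell held 26.9% of the 67 WT UMIs of COL6A3 and 1 cell 42.1% of the 57 mutant UMIs. In oligodendrocyte-like cells COL6A2 had no UMI over both libraries, for which the interval reaches up to 8.56 CPM, while COL6A3 had 16. The proportion for col5a2a against COL5A1 was 21.7% in mesenchymal-like cells and 39.1% in glial-like cells, but 3.8% in hormone cells, where 16 UMIs of col5a2a stood beside 405 of COL5A1. Likewise col9a1a took 26.1% of its pair with col9a2 in mesenchymal-like cells and 84.6% in hormone cells (73.5 to 92.4), with 55 and 10 UMIs. Type I chains kept nearly equal shares in mesenchymal-like cells, col1a1a taking 50.2% against col1a2. These shares compare the same pair between classes and not the amounts of both chains, since UMI capture can differ between genes.

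Mesenchymal-like cells were not uniform in their collagens. Re-clustering the class without collagen genes gave 10 sub-clusters, a step chosen after the data had been seen, and the members fell into recognisable sets across them. A sub-cluster of 40 cells led by spp1, the bone matrix protein osteopontin, and holding sp7, a transcription factor of bone-forming cells, among its leading genes reached 67603 CPM of collagen and held 52.4% of all collagen UMIs of the class. Of its 29079 collagen UMIs, 21323 came from 2 mutant cells, and its WT cells alone summed to 13628 CPM. Over both libraries this sub-cluster held 74.2% of the class's col1a2, 71.4% of col1a1a, 70.6% of col1a1b, 88.2% of COL14A1 and 58.5% of col11a2. The type I and col11a2 shares lean on those 2 cells, which held 390 of the 722 mutant col11a2 UMIs of the class. A second sub-cluster of 11 cells led by matn1, epyc and cnmd, all genes of cartilage, held 91.3% of col2a1a, 93.5% of col9a1a, 93.1% of col9a3, 85.1% of col9a2 and 77.7% of col11a1a. In 6 cells led by scxa, tnmd and mkxa, genes of tendon, collagen reached 58990.2 CPM, with type I, COL5A1 and both COL12A1 genes counted most. Whether cells with genes of bone, cartilage, tendon or muscle belong to the pituitary or to tissue dissected with it was not tested.

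Over both libraries the remaining sub-clusters had lower sums. In 73 cells with NID1, a basement membrane linker, among the leading genes, collagen summed to 18622 CPM. In WT alone these cells stood at 16559 CPM, above the 13628 CPM of the spp1-led sub-cluster. They held 74.5% of the class's COL4A1, 47.7% of COL5A1 and 48.8% of col5a2a. In 52 cells led by f13a1b and with lum among the leading genes, both COL12A1 genes (42.9% and 52.6% of their class UMIs) and col15a1b (60.6%) were concentrated. A sub-cluster of 14 cells with ucmaa, a cartilage matrix gene, among its leading genes held 60.2% of col8a2. In 16 cells led by etsrp and egfl7, genes of endothelium, the sum was 1118 CPM.

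**Figure D3:**
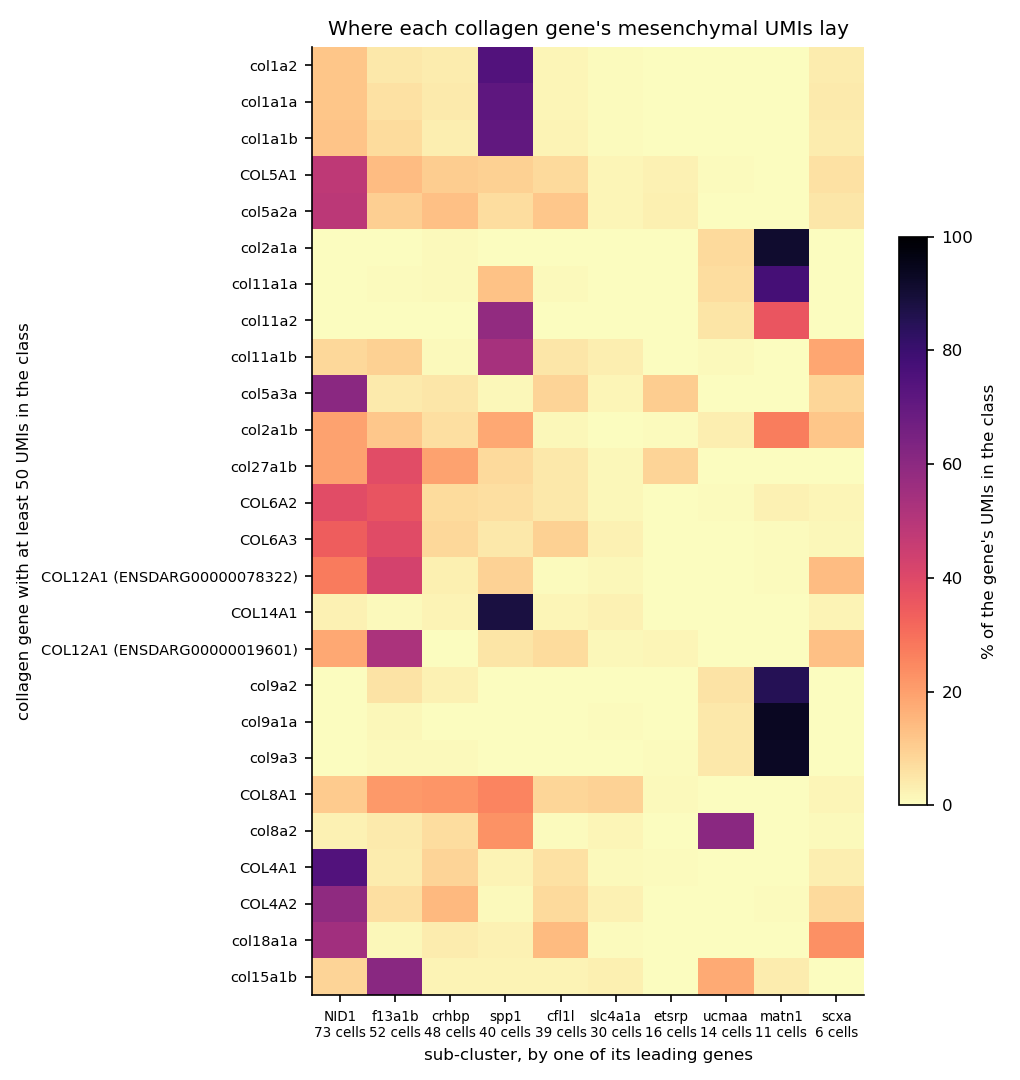
Percent of each gene's UMIs within the mesenchymal-like class (color, pale 0 to dark 100) that lay in each of 10 sub-clusters (horizontal axis, called by a leading gene, with the number of cells), for the 26 members with at least 50 UMIs in the class (vertical axis). Type I genes and COL14A1 are dark in the spp1 column, and col2a1a and the type IX genes are dark in the matn1 column, which holds only 11 cells.

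Between genotypes, the mesenchymal-like class held more collagen in the mutant library, and this came from few cells. WT cells held 15227 collagen UMIs (12840.4 CPM) and mutant cells 40305 (27477 CPM), a log2 ratio, mutant over WT, of 1.098 (1.07 to 1.12). Called genes were those past 2-fold among genes with at least 50 UMIs in the class over both libraries. Of 26 members so tested, 5 were higher in the mutant and 0 lower, while 7.25% of all 4869 tested genes were higher and 6.49% lower. The 5 were COL14A1, col1a2, col1a1a, col1a1b and col11a2. The members' median log2 ratio was -0.02, the same as that of all tested genes.

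For col1a1a the WT cells held 2343 UMIs (1976 CPM) and the mutant cells 10636 (7251 CPM), a log2 ratio of 1.88 (1.81 to 1.94). The ratio was 2.08 (2.01 to 2.15) for col1a2, from 2066 and 10807 UMIs, and 1.69 (1.63 to 1.76) for col1a1b, from 2239 and 8961. COL14A1 gave 2.099 (1.64 to 2.58), from 47 and 249 UMIs, and col11a2 gave 1.57 (1.34 to 1.80), from 197 and 722. For COL14A1, 1 cell held 53.2% of the WT UMIs and 1 cell 29.3% of the mutant ones. At the other end were col15a1b at -0.71 (-1.14 to -0.29), from 110 and 83 UMIs, col27a1b at -0.70 (-1.45 to 0.04) and col2a1a at -0.67 (-0.85 to -0.49). Of the other large members, COL6A2 stood at -0.63 (-0.75 to -0.51), COL12A1 (ENSDARG00000078322) at -0.40 (-0.55 to -0.25), COL6A3 at -0.22, COL5A1 at -0.11 and col5a2a at 0.23, all within 2-fold.

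Just 2 mutant cells held 52.9% of the collagen UMIs of their class, 14867 of the 52919 UMIs in the first cell (28.1%) and 6456 of the 38665 in the second (16.7%). In WT the 2 highest cells held 16.6%, and 50% of the class total was reached with 13 WT cells but with 2 mutant cells. The median cell had 7201 CPM of collagen in WT and 8459 in the mutant. Both mutant cells lay in the spp1-led sub-cluster, which held 13 WT and 27 mutant cells. Its collagen sum was 13628 CPM for WT and 88375 for mutant cells, a log2 ratio of 2.70 (2.62 to 2.77). The WT sum also leaned on 1 cell, which held 877 of its 1629 collagen UMIs. The gene spp1 itself had 1 UMI in the WT class and 3227 in the mutant class, where 18 cells held it. Of these 3227 UMIs, 560 lay in the 2 cells. Other genes of bone-forming cells were counted more in the mutant class, in large part in the same 2 cells but not in these alone. The gene ifitm5 had 0 WT and 59 mutant UMIs, 45 of them in the 2 cells, and sp7 had 10 and 37, with 18 left in the mutant without the 2 cells. The type X genes, known from maturing cartilage and from zebrafish bone-forming cells, had 4 and 3707 UMIs for COL10A1 (3258 in the 2 cells) and 13 and 2458 for col10a1a (1423 in the 2 cells). COL10A1 was seen in 1 WT and 15 mutant cells of the class, and col10a1a in 1 and 20. The origin of the cells with these genes was not tested. A change in their number cannot be told apart from chance sampling of few cells with 1 library per genotype.

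**Figure D4:**
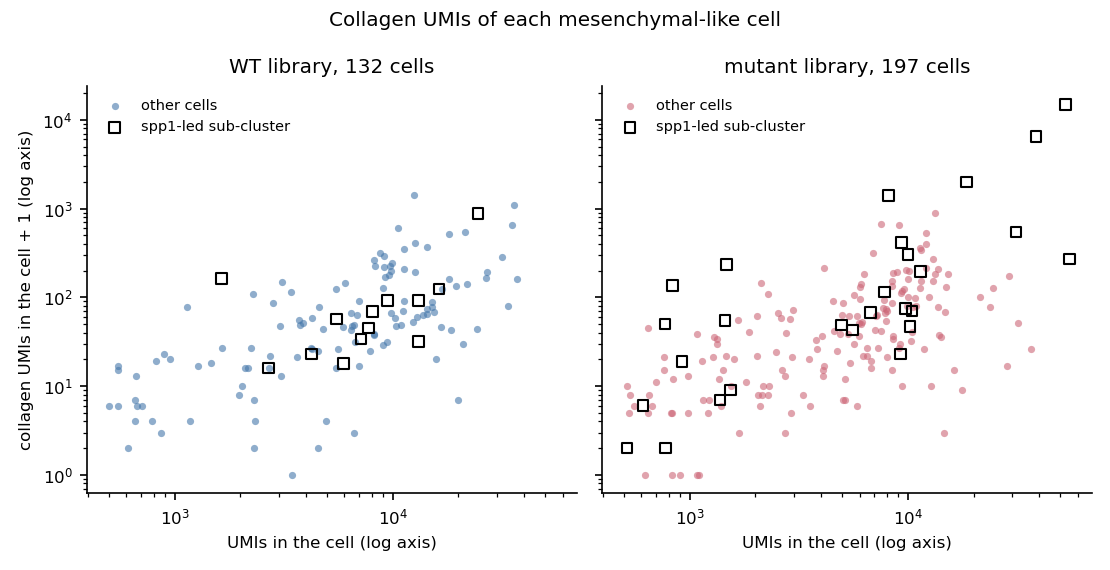
Collagen UMIs plus 1 of each mesenchymal-like cell (vertical axis, log scale) against all UMIs of that cell (horizontal axis, log scale), for 132 WT cells (left) and 197 mutant cells (right), with open squares for cells of the spp1-led sub-cluster. At the top right of the mutant panel, 2 squares lie at 14867 and 6456 collagen UMIs, far above the highest WT cell at 1418.

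Leaving out the 2 highest cells of each library lowered the log2 ratio of the sum to 0.30 (0.27 to 0.34), with 12706 and 18982 UMIs. It also changed which genes were called. Then 7 of 26 members were higher and 0 lower, against 7.45% and 5.71% of all tested genes, and they were COL14A1 at 2.13 and the cartilage chains col11a2 (3.24), col11a1a (3.002), col9a3 (2.74), col9a1a (2.64), col2a1a (2.53) and col9a2 (2.31). The highest WT cell, with 1418 collagen UMIs of which 508 were col2a1a, was a cell of the matn1-led sub-cluster and held 88.8% of the WT col2a1a of the class. Single cells thus set the ratios of cartilage chains as well as of type I chains. Without the whole spp1-led sub-cluster, a choice made after seeing the data, the sum was slightly lower in the mutant, 13598 UMIs (12752 CPM) against 12855 (11118 CPM), a log2 ratio of -0.20 (-0.23 to -0.16). Of 25 members then tested, 0 were higher and 0 lower, beside 7.90% and 6.11% of all tested genes, and their ratios ran from -0.78 for col27a1b to 0.40 for col5a2a. Type I genes stood at -0.27 (col1a1a), -0.22 (col1a2) and -0.49 (col1a1b). Markers of other cells also differed in the class as a whole, with a sum of 13312 (WT) and 9032 CPM (mutant) for 14 epithelial or keratinocyte markers. The sums were 3221 and 1661 for 23 myeloid markers, 1531 and 743 for 32 hormone cell markers and 1522 and 2067 for 12 mural markers. Their part in the result was not tested. The result also turned on doublet removal: with no barcodes removed as likely doublets, both mutant cells fell in shallow clusters outside the class and its ratio was -0.0082. Both cells were deep, against a class median of 5868 UMIs in the mutant, and whether they hold more than 1 cell was not tested beyond the doublet score.

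**Figure D5:**
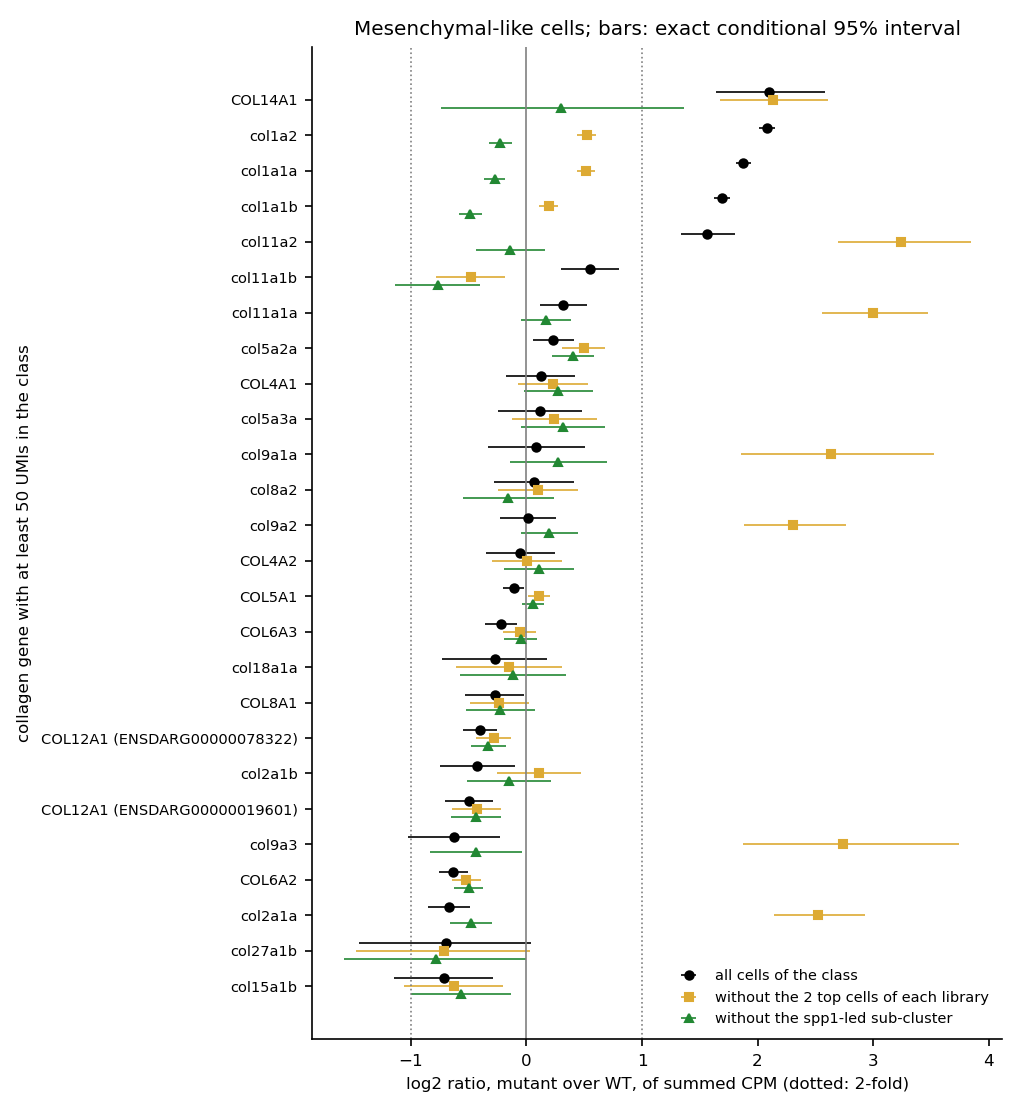
Log2 ratio, mutant over WT, of the CPM of 26 collagen genes in mesenchymal-like cells (horizontal axis, with bars for the exact conditional interval and dotted lines at 2-fold), using all cells (black circles), without the 2 highest cells of each library (yellow squares) and without the spp1-led sub-cluster (green triangles, where COL14A1 had only 15 and 20 UMIs and was not tested). The type I genes move from near 2 to below 0, and the cartilage genes col2a1a, col9a1a, col9a2, col9a3, col11a1a and col11a2 lie above 2 only in the yellow set.

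In endothelial-like cells the sum moved little. It was 1184 WT UMIs (1190.2 CPM) and 1596 mutant UMIs (1439.6 CPM), a log2 ratio of 0.27 (0.17 to 0.38). WT cells held 368 UMIs of COL4A1 (369.9 CPM) and mutant cells 646 (583 CPM), a ratio of 0.66 (0.47 to 0.84), and COL4A2 had 354 and 507, a ratio of 0.36 (0.16 to 0.56). Neither passed 2-fold. Of 10 members tested, 0 were higher and 1 was lower, beside 3.40% and 5.21% of all tested genes. The lower gene was COL6A2, with 58 WT and 24 mutant UMIs, a ratio of -1.43 (-2.18 to -0.72). The type I genes lay at 0.38 (col1a2), -0.26 (col1a1a) and -0.23 (col1a1b), with intervals that include 0. Beside this, the summed red blood cell markers of the class were at 32444 (WT) and 13271 CPM (mutant) and the myeloid markers at 1316 and 338, while the mural markers were at 6954 and 6189. Their part was not tested.

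Oligodendrocyte-like cells summed to 474 WT UMIs (2349 CPM) and 654 mutant UMIs (2856 CPM), a log2 ratio of 0.28 (0.11 to 0.46). Of the 6 members with at least 50 UMIs, COL5A1 (55 and 113 UMIs, 0.86) and col5a3a (24 and 50, 0.88) had intervals above 0, and the others ran from -0.33 to 0.30. In glial-like cells the sum was lower in the mutant, 594 UMIs (886 CPM) against 1013 (1133 CPM), a ratio of -0.36 (-0.50 to -0.21). There COL14A1 was past 2-fold lower, with 305 WT UMIs (341 CPM) and 104 mutant UMIs (155 CPM), a ratio of -1.14 (-1.47 to -0.81), and col1a1a (19 and 31 UMIs, 1.12) and col5a2a (48 and 77, 1.097) were higher. Thus 2 of 8 tested members were higher and 1 lower, against 4.97% and 9.91% of all tested genes. The mutant's col5a2a count rested to 41.6% on 1 cell. The glial marker sum was also lower in this class, at 8099 (WT) and 5840.3 CPM (mutant), and the red blood cell marker sum stood at 21479 and 8355. Their part was not tested.

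Hormone clusters were compared 1 by 1. In the gh1 cluster the sum was 426 WT UMIs (139.8 CPM) and 597 mutant UMIs (230.4 CPM), a log2 ratio of 0.72 (0.54 to 0.90). The median of all genes tested there was itself 0.40, and the summed hormone cell markers, most of them gh1, took 316304 (WT) and 157225 CPM (mutant). Since CPM is a share of all UMIs, this moves with the other genes, and its part was not tested. Of 6 tested members, col11a1b (26 and 70 UMIs, 1.66) and COL14A1 (31 and 80, 1.60) were higher, where 17.6% of all genes were. Only col18a1a was lower, where 3.17% of all genes were. It had 82 UMIs in 27 of 176 WT cells (26.9 CPM) and 5 UMIs in 2 of 160 mutant cells (1.93 CPM), a ratio of -3.80 (-5.46 to -2.52). Its counts were 23 and 2 in the pomca cluster (16.7 and 2.43 CPM) and 33 and 1 in the lhb cluster (28.99 and 3.42 CPM). Both fell under the minimum of 50 UMIs for a call. The lhb ratio was -3.08 with a wide interval (-8.43 to -0.50), from 108 WT and 20 mutant cells. In the prl cluster col18a1a had 51 and 38 UMIs, a ratio of 0.30 (-0.35 to 0.93). In red blood cell-like cells col18a1a had 8 UMIs in WT (1.64 CPM) and none in the mutant, so the WT levels of 16.7 to 28.99 CPM in the hormone clusters lay above free RNA.

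The other hormone clusters had few testable members, namely 6 in the prl cluster, 2 in the pomca cluster and 1 in the lhb cluster. In the prl cluster 1 was higher and 0 lower, where 5.05% of all genes were higher and 4.27% lower. It was COL12A1 (ENSDARG00000078322), with 27 WT and 46 mutant UMIs, a log2 ratio of 1.49 (0.77 to 2.23), and 1 cell held 51.9% of the WT count. In the pomca cluster 0 were higher and 1 lower, beside 4.66% and 4.82% of all genes, and in the lhb cluster the 1 member tested was lower, beside 9.37% higher and 14.7% lower. COL4A4 in the pomca cluster had 93 UMIs in 42 of 143 WT cells (67.3 CPM) and 21 in 9 of 67 mutant cells (25.5 CPM), a log2 ratio of -1.40 (-2.16 to -0.71). The fibrillar chain col27a1b had 69 UMIs in 21 of 108 WT cells of the lhb cluster (60.6 CPM) and 2 UMIs in 2 of 20 mutant cells (6.85 CPM), a ratio of -3.15 (-6.22 to -1.24), while the gh1, prl and pomca clusters held between 3 and 10 of its UMIs over both libraries. In the prl cluster COL12A1 (ENSDARG00000019601) had 184 and 151 UMIs, and 1 cell held 60.9% of the mutant's. Collagen sums of the prl, pomca and lhb clusters gave ratios of 0.37 (0.18 to 0.55), -0.14 (-0.40 to 0.12) and 0.03 (-0.45 to 0.49).

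Genes that process and bind collagen were counted from 5 lists, of which the genes with the most UMIs are named. Of 18 genes for procollagen cleavage and cross-linking, 15 were highest in mesenchymal-like cells, led in UMIs by sparc, a collagen-binding matrix protein, at 3469 CPM, and bmp1a, the protease that trims procollagen, at 199.8. Of 11 genes for collagen degradation 9 were highest there, mmp2, a gelatin-cutting protease, at 992 CPM among them. Since mmp2 was also a listed marker used to name this class, its place there is not a separate result. In contrast timp2b, an inhibitor of such proteases, was highest in oligodendrocyte-like cells at 873 CPM. Chain modification and folding genes were not so placed, with 6 of 22 highest in mesenchymal-like and 8 in glial-like cells. The collagen chaperone serpinh1b was highest in mesenchymal-like cells (683 CPM) but also had 311 CPM in hormone cells, and creb3l1, a transcription factor that in mice activates type I collagen in bone-forming cells, was highest in hormone cells at 888 CPM against 22.6 in mesenchymal-like cells. Of 7 collagen receptors 2 were highest in mesenchymal-like cells, where itgb1a stood at 108 CPM, and DDR1 was highest in glial-like cells at 385. Other basement membrane genes were most often highest in oligodendrocyte-like cells (6 of 10). Of the list's leading genes, agrn had 100.4 CPM in hormone and 99.1 in mesenchymal-like cells, and lama5 had 121 in glial-like and 118 in hormone cells.

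Between genotypes, 3 of 14 modification, 4 of 12 cleavage and cross-linking, 3 of 8 degradation, 1 of 6 receptor and 0 of 5 basement membrane genes tested in mesenchymal-like cells were higher in the mutant past 2-fold, and 1 cleavage and cross-linking gene was lower, against the 7.25% and 6.49% of all genes given above. For timp2b the WT cells held 294 UMIs and the mutant cells 1762, a log2 ratio of 2.28 (2.098 to 2.46) that was 2.31 without the 2 highest cells of each library. This gene was itself among the leading genes of the spp1-led sub-cluster. The ratio of sparc fell from 0.89 to 0.35 without those cells. For serpinh1b it was 0.35 (0.21 to 0.49), and the 2 highest mutant cells held only 23 of its 1108 UMIs. The gene mmp2 gave 0.05 (-0.07 to 0.16).

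Over all kept cells the members summed to 1042 (WT) and 3163 CPM (mutant), a log2 ratio of 1.60 (1.58 to 1.62), where the median of all tested genes was 0.24. This sum mixes the level per class with the larger share of mesenchymal-like cells in the mutant library, and without the 2 highest cells of each library the ratio was 0.94. In the shallow clusters the sum was 575 WT UMIs (228 CPM) and 1144 mutant UMIs (594 CPM), and col1a1a, col1a1b and col1a2 had ratios of 2.44, 2.72 and 2.78 there. For each of these genes 1 cell held much of the mutant count, 33.5%, 27.8% and 32.0% in the same order. Red blood cell-like cells gave 150 UMIs (30.7 CPM) and 64 (39.3 CPM), a ratio of 0.36 (-0.09 to 0.79). For the type I genes alone the ratios there were 1.30 (0.17 to 2.41) for col1a2, 1.00 (-0.19 to 2.13) for col1a1a and 0.65 (-0.55 to 1.77) for col1a1b, from 11 to 21 UMIs per library, and what this free RNA adds to the type I levels of other cells was not tested.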

How the data were processed

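Per the labels and the study's methods, the authors sequenced droplet libraries of pooled pituitaries, and the submitters' processing notes name Cell Ranger, Seurat and the zebrafish build GRCz11; the study's methods give the software versions. The deposited files hold raw UMI counts per gene and barcode, unnormalised, with at least 500 UMIs per barcode. Barcodes are 20 bases long in the files. From these counts, cells with at least 200 genes and at most 20% mitochondrial UMIs were kept. The automatic threshold of Scrublet marked none, so the barcodes with the highest doublet scores were removed, 0.8% per 1000 barcodes (206 WT and 101 mutant barcodes). With scanpy 1.11.5, counts were scaled to 10000 per cell, and 2000 variable genes (library as batch, values clipped at 10), 30 components, 20 neighbours and Leiden resolution 1 gave 29 clusters. Collagen, mitochondrial, CCKBR and 12 hormone genes took no part in this clustering. A cluster was named from at least 3 listed markers, each in at least 10% of its cells and at 2-fold the other cells, if its 10 leading genes did not go against the name. The pomca cluster was an exception, placed with hormone cells by its mean pomca level. Clusters with a median under 1000 UMIs were set apart. That limit and the lists of genes that speak against a name were set after the clusters had been seen.

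UMIs were summed per class and library and divided by all UMIs of the class (CPM). Exact Poisson, conditional and Clopper-Pearson intervals are at 95%. Ratios were called past 2-fold among genes with at least 50 UMIs. Shares of cells are also given at a common depth of 1000 UMIs drawn per cell, without shallower cells. The ratio code was tested on simulated data. Named were the 8 members with most UMIs, the 3 highest per class, the 3 highest and lowest ratios in mesenchymal-like and endothelial-like cells, partner chains, and 2 genes per pathway list. Other genes were named after their values had been seen. The members and lists were chosen with earlier results of these data known. Alternatives varied filters, doublets, clustering, denominators and single cells. Tools were Python 3.11.15, anndata 0.12.19, numpy 2.4.6, scipy 1.17.1, pandas 2.3.3, scikit-learn 1.9.0, python-igraph 0.11.9, leidenalg 0.10.2 and matplotlib 3.10.9.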

Additional observations from a re-analysis of the deposited data

Results flagged for a closer look

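The mutant over WT difference in summed collagen was not the same in each cell class. The log2 ratio was 1.098 in mesenchymal-like cells, 0.27 in endothelial-like cells and -0.36 in glial-like cells. As computed over all cells, the direction in glial-like cells was thus opposite to that in the other 2 classes. In glial-like cells COL14A1 alone held 305 of the 1013 WT and 104 of the 594 mutant collagen UMIs. The glial-like ratio without this gene was not computed. The mesenchymal-like value does not keep its direction, being 0.30 without the 2 top cells of each library, -0.20 without the spp1-led sub-cluster and -0.0082 with no doublets removed. Each value rests on 1 library per genotype, and the difference between the classes was not tested.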

How the results depend on the processing

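Of 69 alternative values, 45 stayed within the interval of the reported ratio or within 1.5 times the reported count, 22 moved beyond that and 2 changed sign. The whole-library ratio does not use the cell classes, so it could not move where only the clustering was varied. Those values are counted among the 45 and say nothing about stability. The changes of sign were both in the mesenchymal-like log2 ratio (1.098 as reported), which was -0.0082 with no doublets removed and -0.20 without the spp1-led sub-cluster. It was 1.33 with collagen genes kept in the clustering, 1.37 with at least 500 genes per cell, 0.38 as a mean of per-cell CPM, 0.61 without the top cell of each library, 0.30 without the 2 top cells and 1.06 with the muscle-marked cluster added. The endothelial-like ratio was 0.14 with at most 10% mitochondrial UMIs and 0.50 as a mean of per-cell CPM. The whole-library ratio was 1.28 as a mean of per-cell CPM, 1.42 with hormone, haemoglobin, mitochondrial and collagen genes out of the denominator, 1.17 without the top cell and 0.94 without the 2 top cells. The number of members highest in endothelial-like cells (2) was 0 with collagen genes kept in the clustering, with at least 500 genes and with no doublets removed, and 1 with every barcode, with at most 10% mitochondrial UMIs, with members of at least 100 UMIs and with the pomca cluster left out of the hormone cells. The number of members past 2-fold in mesenchymal-like cells (5) was 1 with no doublets removed, 3 as a mean of per-cell CPM and 0 without the spp1-led sub-cluster. It was 7 without the 2 top cells, and only COL14A1 and col11a2 were called both there and among the 5. Members highest in mesenchymal-like cells ranged from 18 to 22. The alternatives without 2 top cells, without the spp1-led sub-cluster, with the muscle-marked cluster and without the pomca cluster were chosen after seeing the data. Clustering each library on its own named no mesenchymal-like or endothelial-like cells in WT, so it gave no ratio there. No paired analysis was possible because each genotype has 1 library. Depth limits members under 50 UMIs in a class, for which a 2-fold difference was not assessed.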

Other observations

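In the 57 cells of the cluster with myod1 among its leading genes, the members summed to 9221 CPM for WT and 11131 for mutant cells, a log2 ratio of 0.27 (0.17 to 0.37). In the foxd3 cluster of 36 cells, col1a1b had only 7 UMIs beside 100 of COL5A1. In the lyz cluster, COL4A1 had 139 UMIs and COL4A2 100, and COL6A2 had 95 beside 11 of COL6A3. No explanation of these values was tested.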
